A study of Homo sapiens with 12 samples.

Results

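TBRG4, also called FASTKD4, and its relatives FASTK, FASTKD1, FASTKD2, FASTKD3 and FASTKD5 make up the FASTK family, and these 6 genes were followed across the 4 groups of a SLERT experiment. Their rows were picked by gene symbol, and the family was chosen with earlier results of these data known. All 6 of 6 were found among the 62656 genes of the count table and passed the filter on low counts in every comparison. The samples are 12 RNA-seq libraries, 3 in each of 4 groups, of the established human cell lines HCT116 and LoVo, both derived from colorectal cancer. The groups were HCT116 labelled as control (columns headed as vector), HCT116 with overexpression (OE) of the long non-coding RNA SLERT, LoVo labelled as control (columns headed ShNC) and LoVo labelled as SLERT knockdown (columns headed Sh). Whether a line is 1 clone and which construct was used are not given in these sources. The design text places the experiment in the study of liver metastasis of rectal cancer. SLERT has no gene of its own in the tables. As background, it is an RNA that carries a snoRNA at each end and is made from the TBRG4 locus.

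FASTK proteins share a C-terminal RAP domain and act on RNA inside mitochondria. There the genome is copied into long transcripts that are cut apart, modified, stabilised and translated, and each member is known for acting on particular mitochondrial RNAs. TBRG4 stabilises a set of mitochondrial mRNAs, FASTK is needed for the ND6 mRNA, FASTKD2 binds the 16S rRNA and serves ribosome assembly, and FASTKD5 serves the cutting of transcripts that no tRNA separates.

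The first readout was the TBRG4 locus, since it checks the labels. The gene TBRG4 (ENSG00000136270) is transcribed from the minus strand, on chromosome 7 at 45100100 to 45112047 (GRCh38, GENCODE v29), and 3 H/ACA snoRNA genes lie within it on the same strand. SNORA5C (45104906 to 45105042) and SNORA5A (45104349 to 45104482) are known as the ends of SLERT, and SNORA5B (45105968 to 45106099) lies upstream of both. Their RNAs are printed 5′ to 3′ because SNORA5C and SNORA5A, as ends of SLERT, stand in for it here. A count on a snoRNA gene does not tell reads of SLERT from reads of the snoRNA on its own. The capitals mark the ANANNA match nearest the middle, the pattern of an H box, and the ACA that stands 3 bases before the 3′ end.

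SNORA5C: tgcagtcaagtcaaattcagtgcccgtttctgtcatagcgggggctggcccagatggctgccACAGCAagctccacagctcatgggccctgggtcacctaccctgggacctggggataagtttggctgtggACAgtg

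SNORA5A: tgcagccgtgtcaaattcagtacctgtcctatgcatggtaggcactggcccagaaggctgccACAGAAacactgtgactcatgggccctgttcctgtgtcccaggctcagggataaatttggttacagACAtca

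SNORA5B: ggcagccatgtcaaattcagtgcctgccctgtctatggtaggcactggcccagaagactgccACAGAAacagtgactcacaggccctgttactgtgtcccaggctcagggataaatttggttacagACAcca

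SNORA5A and SNORA5B were identical at 89.6% of aligned bases, with a longest identical run of 38 bases, so their reads may be shared. SNORA5C was 68.3% identical to SNORA5A and 67.4% to SNORA5B, with longest runs of 12 and 15 bases. Both patterns are common: of the 231 annotated snoRNAs of 130 to 140 bases, 66.7% had an ACA at that place and 96.1% had at least 1 ANANNA, searched on the RNA strand.

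Between SNORA5C and SNORA5A lies exon 4 of the main coding transcript, which has 11 exons. The exon has 172 bases at 45104538 to 45104709, all of them coding. It is printed because an RNA that ran unspliced from the start of SNORA5C to the end of SNORA5A, 694 bases, would contain it.

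TBRG4 exon 4: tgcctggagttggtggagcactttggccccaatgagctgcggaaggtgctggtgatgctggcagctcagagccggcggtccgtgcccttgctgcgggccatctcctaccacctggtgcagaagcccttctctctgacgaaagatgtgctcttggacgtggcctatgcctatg

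The exon begins 196 bases after SNORA5C and ends 55 bases before SNORA5A. It is present in 7 of the 17 annotated TBRG4 transcripts, and 2 coding transcripts skip it together with the next exon.

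SNORA5C had 4, 4 and 8 counts in the HCT116 controls and 551, 661 and 714 in the OE libraries. In LoVo it had 9, 9 and 19 counts in the controls and 11, 14 and 12 in the libraries labelled knockdown. The OE libraries thus stood far above all others, while the LoVo groups overlapped. SNORA5A had 0 counts in each HCT116 control, 39, 46 and 57 with OE, 3, 7 and 2 in the LoVo controls and 1, 8 and 1 in the libraries labelled knockdown. Taking 3 counts summed over the controls as a floor, it was at least 49.4-fold higher with OE, and SNORA5C was 125-fold higher (log2 fold change 6.97 by edgeR, SE 0.209). Both are given as a description: with 0 to 8 counts per control, they passed the filter on low counts through the OE libraries. As ends of SLERT they read the overexpression itself, which checks the label. In LoVo the change of SNORA5C was -0.02 on the log2 scale, with a 95% interval from -0.92 to 0.87 (adjusted p = 0.98), so neither a fall nor a rise by less than these bounds was detectable at this depth. The LoVo libraries are therefore named by their label throughout. No read was counted on SNORA5B in any of the 12 libraries (0 counts, with 3 per library as the limit this allows), and an exon of 1 TBRG4 transcript covers it.

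**Figure D1:**
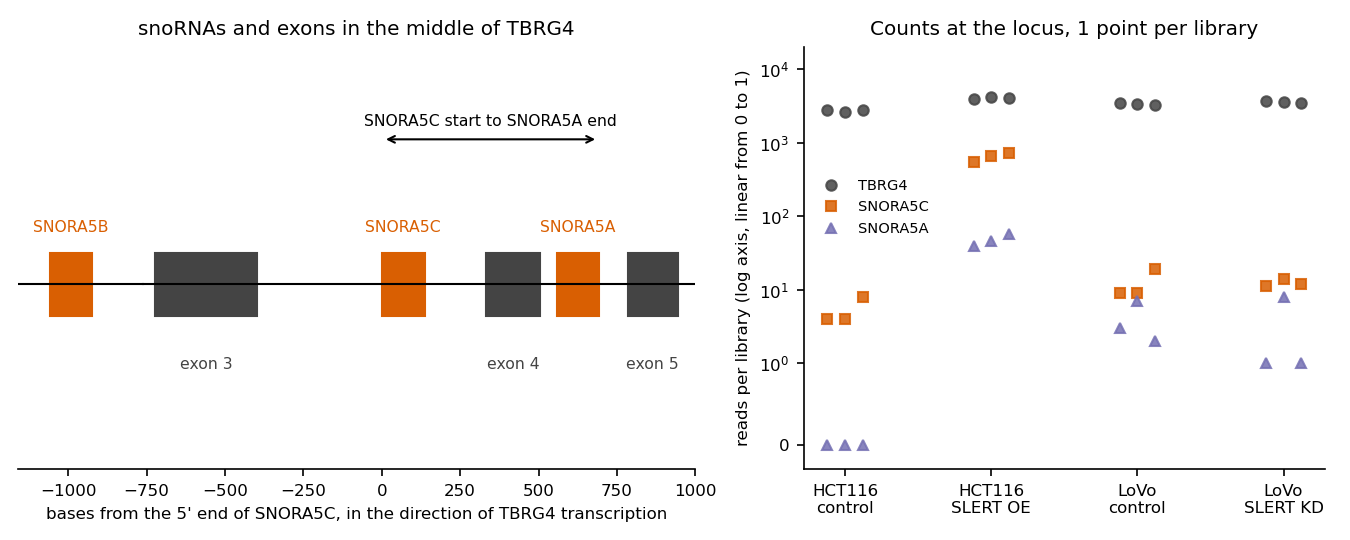
Left, the 3 snoRNAs and exons 3, 4 and 5 of the main TBRG4 transcript, to scale, in bases from the 5′ end of SNORA5C along the direction of TBRG4 transcription. Right, reads per library (log axis, linear from 0 to 1) for TBRG4, SNORA5C and SNORA5A, 1 point per library; the OE libraries hold 551 to 714 SNORA5C reads against 4 to 19 in all others.

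SNORA5A was the smaller part of the snoRNA reads in every group with reads on it, and smallest with OE. It made up 6.87% of the 2068 reads on both snoRNAs in the OE libraries (exact 95% binomial interval 5.81 to 8.04%). It made up 24.5% of 49 reads in the LoVo controls (13.3 to 38.9%) and 21.3% of 47 reads in the libraries labelled knockdown (10.7 to 35.7%). In the HCT116 controls it made up 0 of 16 reads, which allows up to 20.6%. These intervals cover counting error only, and single LoVo libraries ran from 1.29 to 12 SNORA5C reads per SNORA5A read. Relative to the host, SNORA5C had 0.145, 0.152 and 0.287 reads per 100 TBRG4 reads in the HCT116 controls and 13.9, 16 and 17.5 with OE.

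By all reads counted on the gene, TBRG4 rose in HCT116 with OE and did not pass the test in LoVo. Levels are given as counts per M counts after normalisation (CPM) and changes as log2 fold changes from edgeR's quasi-likelihood test, called at a Benjamini-Hochberg adjusted p under 0.05 over all genes tested. TBRG4 stood at 165, 159 and 178 CPM in the HCT116 controls and at 250, 258 and 279 CPM in the OE libraries. All 3 OE libraries lay above every control. The group means were 167 ± 9.86 and 262 ± 14.8 CPM (SD, n = 3), a rise by 1.58-fold or 0.66 on the log2 scale (SE 0.0581, adjusted p = 5.24e-08), and it was called whichever library was left out. It was the only call among the 6 genes in HCT116, where 0.507% of the 15980 genes tested were called higher and 0.407% lower.

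On that scale, TBRG4 gained 95.1 CPM with OE (SE 10.3), SNORA5C 41.2 CPM (SE 4.06) and SNORA5A 3.07 CPM (SE 0.427). TBRG4 has 5803 bases of exon by the length its FPKM values imply, against 137 for SNORA5C and 134 for SNORA5A. The tables hold 1 count per gene, so where in TBRG4 the added reads lie, and whether they fall on exon 4 between the snoRNAs or along the whole mRNA, was not tested.

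In LoVo, TBRG4 stood at 220, 215 and 216 CPM in the controls and at 247, 215 and 225 CPM in the libraries labelled knockdown. The groups overlapped, and knockdown 1 was the highest of the 6. The log2 fold change was 0.07, with a 95% interval from -0.05 to 0.20 (adjusted p = 0.413). A fall of TBRG4 by more than 0.05 on the log2 scale therefore lies outside the interval. The change with more SLERT by the labels was taken as OE less control for HCT116 and as control less knockdown for LoVo. It was larger in HCT116 by 0.73 (SE 0.085, 95% interval 0.56 to 0.90, adjusted p = 6.9e-07). The LoVo controls stood above the HCT116 controls by 0.38 on the log2 scale (SE 0.0542, adjusted p = 1.96e-07), and the HCT116 OE libraries, at 250 to 279 CPM, lay above the LoVo controls.

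**Figure D2:**
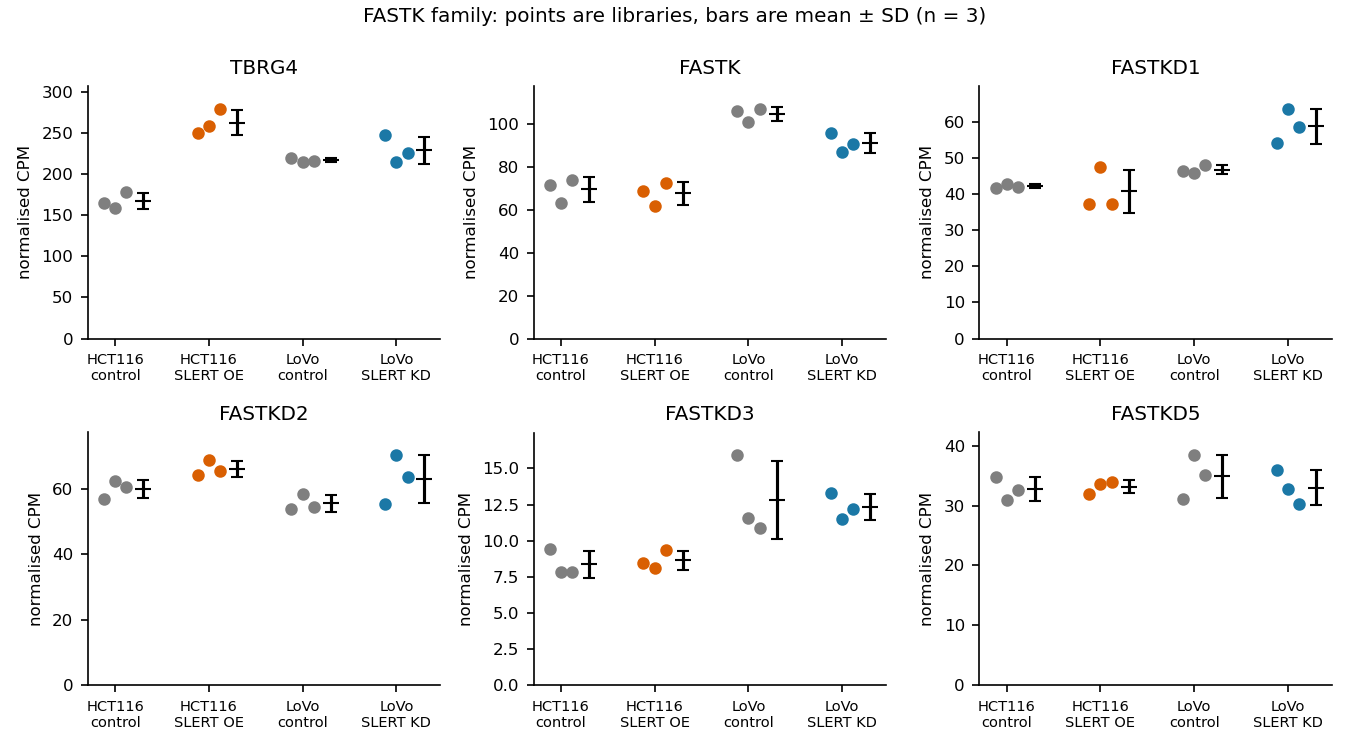
Normalised CPM of each of the 6 genes, with 1 panel per gene and an axis from 0; points are libraries and the black bars are mean ± SD (n = 3). The OE points of TBRG4 lie between 250 and 279 CPM, above its controls at 159 to 178, while the points of FASTKD5 overlap in all groups.

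FASTK, the founding member, gives a cytosolic protein and a mitochondrial form that the ND6 mRNA depends on. It was not called with OE, where it stood at 71.4, 63.1 and 74.1 CPM in the HCT116 controls and at 68.6, 61.8 and 72.6 CPM with OE. These groups overlapped, and the log2 fold change was -0.03 with a 95% interval from -0.18 to 0.12. In LoVo it stood at 106, 101 and 107 CPM in the controls and 96, 86.8 and 90.5 CPM in the libraries labelled knockdown, with no overlap. The means were 104 ± 3.22 and 91.1 ± 4.63 CPM, a fall by 1.15-fold (-0.20 on the log2 scale, SE 0.0645, adjusted p = 0.0216). The fall held its call when knockdown 1 (-0.24, adjusted p = 0.00886) or LoVo control 2 (-0.23, 0.0317) was dropped. Dropping LoVo control 1 (-0.19, 0.0777), LoVo control 3 (-0.19, 0.11), knockdown 2 (-0.17, 0.0603) or knockdown 3 (-0.20, 0.0979) lost the call at about the same size. The difference between lines in the change with more SLERT was -0.24 (SE 0.099, adjusted p = 0.108), or 0.0478 without HCT116 control 2. FASTK was also the member with the second largest gap between lines, higher in the LoVo controls by 0.59 (SE 0.063, adjusted p = 7.1e-10).

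FASTK (ENSG00000164896, chromosome 7, 151076593 to 151080866, minus strand) stands in a row of closely spaced genes. SLC4A2, an anion exchanger that ends 66 bases away, fell with the knockdown label as well (log2 fold change -0.30, SE 0.0826, adjusted p = 0.00843), and so did AGAP3, a GTPase-activating protein 4965 bases away (-0.34, SE 0.0637, adjusted p = 0.00034). For TMUB1, 214 bases away, the value was -0.14 (adjusted p = 0.181). None of the 3 passed in HCT116, where their log2 fold changes ran from 0.01 to 0.11. Over all 16253 genes tested in LoVo, 13.7% were called lower.

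FASTKD1 is known for its effect on the ND3 mRNA, whose level rises when FASTKD1 is lost. It rose in the LoVo libraries labelled knockdown, and this was the member call in that comparison that held under all 14 alternatives. It stood at 46.3, 45.8 and 48.2 CPM in the LoVo controls and 54.1, 63.6 and 58.6 CPM with the knockdown label. All 3 lay above every control, and the means of 46.8 ± 1.26 and 58.8 ± 4.76 CPM differ by 1.25-fold (0.32 on the log2 scale, SE 0.0759, adjusted p = 0.00296). Its adjusted p ran from 0.000128 to 0.0368 over those alternatives. In HCT116 it stood at 41.8, 42.8 and 42.1 CPM in the controls and 37.4, 47.6 and 37.3 CPM with OE, where OE 2 lay above and the other OE libraries below every control. The log2 fold change was -0.04 (95% interval -0.22 to 0.13). The difference between lines was 0.28 (SE 0.118, adjusted p = 0.115) and was not called in any of its 18 alternatives.

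FASTKD1 and FASTK were 2 of 6 members called in LoVo, 1 in each direction. Over all 16253 genes tested there, 12.6% were called higher and 13.7% lower, so 1 call among 6 genes in each direction is near the share over all genes. ND3 itself, MT-ND3, stood at 313 ± 50.3 CPM in the LoVo controls and at 346 CPM with the knockdown label (log2 fold change 0.14, adjusted p = 0.242).

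FASTKD2 was the member whose changes leaned upward in both lines without passing the test in either. In HCT116 it stood at 56.8, 62.3 and 60.4 CPM in the controls and 64, 68.6 and 65.4 CPM with OE. The groups did not overlap, but the log2 fold change of 0.15 (95% interval 0.01 to 0.29) had an adjusted p of 0.296. In LoVo it stood at 53.6, 58.4 and 54.5 CPM in the controls and 55.3, 70.1 and 63.4 CPM with the knockdown label. Here knockdown 1 lay among the controls, and the log2 fold change was 0.18 (95% interval 0.01 to 0.34, adjusted p = 0.113). It was called without knockdown 1 (0.26, adjusted p = 0.0124) and had 0.09 without knockdown 2.

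With more SLERT by the labels, these values have opposite signs, and the difference between lines was called at 0.32 (SE 0.107, adjusted p = 0.0393). That call was lost in 10 of 18 alternatives, with an adjusted p up to 0.187. They were both fits on FPKM, upper quartile factors, and the fits without HCT116 control 1, OE 2, OE 3, LoVo control 1, LoVo control 3, knockdown 2 or knockdown 3. In that comparison 2 of 6 members, TBRG4 and FASTKD2, were called higher and 0 lower, against 6.94% and 7.61% of the 18199 genes tested. FASTKD2 (ENSG00000118246, chromosome 2, 206765357 to 206792509, plus strand) overlaps the start of MDH1B on the other strand, a gene with 0 to 52 counts per library.

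FASTKD3, needed for full mitochondrial respiration, was the lowest member and its counts carry the widest error. It had 123 to 158 counts per HCT116 control, 130 to 137 with OE, 164 to 249 per LoVo control and 186 to 199 with the knockdown label. Its levels were 9.44, 7.82 and 7.84 CPM in the HCT116 controls against 8.44, 8.11 and 9.36 CPM with OE, which overlapped (log2 fold change 0.05, 95% interval -0.23 to 0.34). They were 15.9, 11.6 and 10.9 CPM in the LoVo controls against 13.3, 11.5 and 12.2 CPM with the knockdown label (-0.06, 95% interval -0.34 to 0.22). LoVo control 1 stood above the other LoVo libraries, and without it the latter change was 0.12. The gene (ENSG00000124279, chromosome 5, 7859159 to 7869037, minus strand) overlaps MTRR, which encodes methionine synthase reductase and lies on the opposite strand. Both were higher in the LoVo controls than in the HCT116 controls, FASTKD3 by 0.62 (SE 0.144, adjusted p = 0.000266) and MTRR by 1.08 (SE 0.0671, adjusted p = 2.74e-15), and without strand their reads in the overlap may not be told apart.

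FASTKD5 was called in none of the 4 comparisons. It stood at 34.8, 30.9 and 32.7 CPM in the HCT116 controls, 31.9, 33.7 and 33.9 CPM with OE, 31.1, 38.4 and 35.2 CPM in the LoVo controls and 36, 32.8 and 30.3 CPM with the knockdown label. All 4 groups overlapped. Its log2 fold changes were 0.03 with OE (95% interval -0.14 to 0.19), -0.09 with the knockdown label (-0.28 to 0.10) and 0.10 between the controls (-0.08 to 0.27). FASTKD5 (ENSG00000215251, chromosome 20, 3146519 to 3159897, minus strand) lies inside UBOX5 on the same strand, and UBOX5-AS1 overlaps it on the other, so its reads may be split among them. UBOX5, a ubiquitin ligase gene, stood lower than FASTKD5, at 15 ± 1.58 CPM in the HCT116 controls, and had log2 fold changes of 0.16 with OE and 0.01 with the knockdown label. LZTS3, a further neighbour 2720 bases away, fell with the knockdown label (-0.54, SE 0.101, adjusted p = 0.000344).

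**Figure D3:**
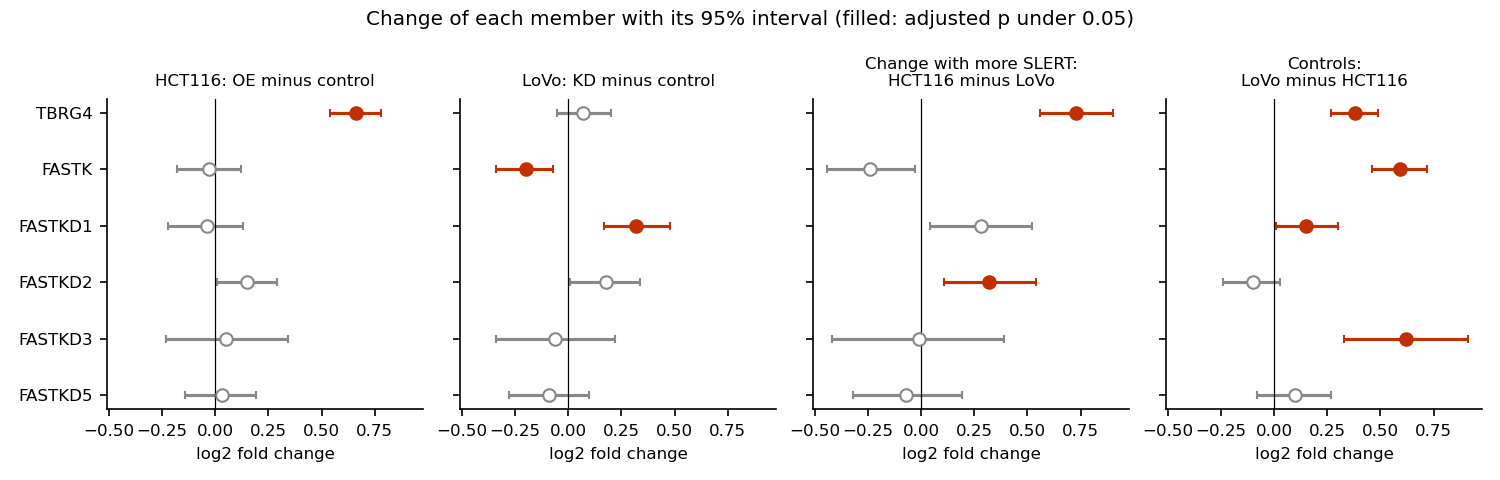
Log2 fold change of each member with its 95% interval in the 4 comparisons; filled points have an adjusted p under 0.05. TBRG4 is at 0.66 with OE and at 0.07 with the knockdown label, and 4 of the 6 points in the comparison of the controls are filled.

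Between the control arms of the lines, 4 of 6 members were called higher in LoVo and 0 lower, against 39.0% and 39.9% of the 17143 genes tested. These were FASTKD3, FASTK, TBRG4 and FASTKD1. FASTKD1 had a log2 difference of 0.15 (SE 0.0697, adjusted p = 0.045), and its call was lost in 8 of 13 alternatives, DESeq2 (adjusted p = 0.173) and each fit without a control of HCT116 among them. FASTKD2 had -0.10 (95% interval -0.24 to 0.03). With 1 line of each kind, line and handling cannot be told apart.

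Levels of different genes are compared by FPKM, which divides by gene length. The lengths implied by the FPKM values run from 2857 bases for FASTKD3 to 9759 for FASTKD2, and their definition is not given in these sources. The order and the shares rest on them: in the HCT116 controls FASTKD2 had 59.8 CPM and FASTKD1 42.2 CPM. TBRG4 was the highest member in all 4 groups, at 28 ± 1.61 FPKM in the HCT116 controls, 43.6 ± 2.17 with OE, 39.1 ± 0.632 in the LoVo controls and 40.2 ± 2.69 with the knockdown label. FASTK was next, at 17.9 ± 1.43, 17.3 ± 1.29, 28.9 ± 0.837 and 24.6 ± 1.12 FPKM, and its libraries lay apart from those of TBRG4 and of FASTKD1 in each group. FASTKD1 followed at 6.91 to 10.5 FPKM on average. FASTKD2 and FASTKD5 came after it at 5.83 to 6.66 FPKM. They overlapped in 3 of the 4 groups and lay apart with OE, where FASTKD2 was the higher and overlapped FASTKD1. FASTKD3 was the lowest, at 2.85 to 4.69 FPKM, and in the LoVo controls overlapped FASTKD2.

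By reads counted on the gene, TBRG4 thus made up a larger part of the family with OE. Whether reads of the overexpressed RNA are among those added to TBRG4 was not tested. Its share of the summed FPKM of the 6 genes was 40.5 to 42.2% in the HCT116 controls and 51.8 to 53.4% with OE, a gain of 11.1 percentage points between the means (41.3 ± 0.881 and 52.4 ± 0.826%). In LoVo it was 41.6 ± 0.159% in the controls and 43.5 ± 1.62% with the knockdown label. The FASTK share was 26.4 ± 1.05% and 20.8 ± 1.4% in HCT116 and 30.8 ± 0.723% and 26.6 ± 0.498% in LoVo, without overlap in either line. A share shows unequal change among the 6 genes: FASTK lost share in HCT116 while its own level differed by less than the spread between libraries.

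**Figure D4:**
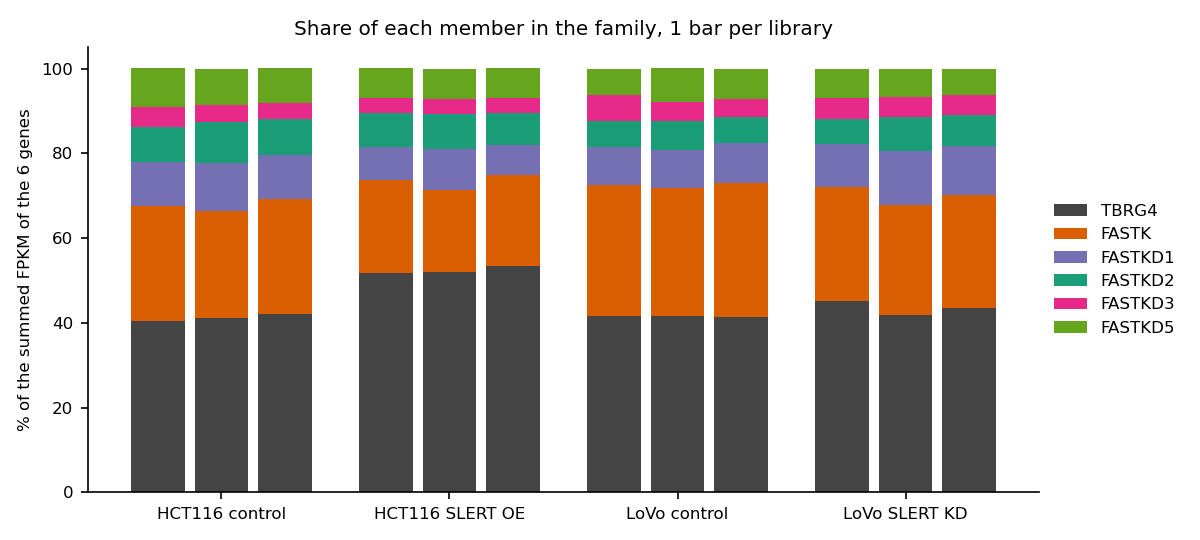
Share of each member in the summed FPKM of the 6 genes, 1 stacked bar per library, with the 3 libraries of a group side by side. The TBRG4 part, by all reads counted on the gene, is 51.8 to 53.4% with OE and 40.5 to 45.1% in the other 9 libraries.

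The other genes that handle mitochondrial RNA were read from 6 lists of nuclear genes, 69 in all. With OE, 0 of 67 tested were called by edgeR, against 0.507% of all genes called higher and 0.407% lower. An unadjusted p under 0.05 was seen for 18, all of them positive, and the share of all genes under it was not taken. DESeq2 called 3 higher of the 50 to which it gave an adjusted p. Over all genes it called 276, 68.8% of them higher. Of the 67, 58 had a positive log2 fold change, 86.6% against 49.4% of all genes, and their median was 0.09 against 0.00. The smallest p-values were those of TRMT10C (0.29, SE 0.0743, adjusted p = 0.0549) and HSD17B10 (0.26, SE 0.0688, adjusted p = 0.0623), subunits of the mitochondrial RNase P, and of PUS1, a tRNA pseudouridine synthase (0.26, SE 0.0686, adjusted p = 0.0614). TEFM, the mitochondrial transcription elongation factor, had the largest value of the 67 (0.51, SE 0.155, adjusted p = 0.112). None of these passed the test.

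With the knockdown label, 9 of 69 were called higher and 3 lower, against 12.6% and 13.7% of all genes. The higher calls over the lists were thus near the share over all genes. Of the 9, 5 belong to the 8 genes of RNA stability, tailing and decay, whose median was 0.24 against 0.00 over all genes. They were LRPPRC, which holds mitochondrial mRNAs stable (323 ± 6.05 and 398 ± 24.1 CPM, a change of 0.29 on the log2 scale, SE 0.058, adjusted p = 0.000633), GRSF1, an RNA granule protein (0.24, SE 0.0608), the helicase SUPV3L1 (0.27, SE 0.0723), the exonuclease REXO2 (0.36, SE 0.0991) and the poly(A) polymerase MTPAP (0.23, SE 0.0735). They include both factors that preserve mitochondrial RNA and factors that degrade it. In translation, 3 of 15 rose, namely the recycling factor MRRF (0.39, SE 0.0649), the initiation factor MTIF2 (0.31, SE 0.0639) and the ribosomal PTCD3 (0.19, SE 0.0644), and so did PTCD2 of RNA processing (0.27, SE 0.0847). The RNA polymerase gene POLRMT (-0.26, SE 0.077), RCC1L of the 16S rRNA pseudouridine module (-0.27, SE 0.0615) and the tRNA modifier GTPBP3 (-0.23, SE 0.0721) fell.

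These counts moved with single libraries. The higher and lower calls over the 6 lists numbered 5 and 1 without LoVo control 1 or control 3, 7 and 1 without knockdown 2, 7 and 2 without knockdown 3, and 12 and 6 without knockdown 1. The calls in the stability list numbered 3 without control 1, control 3 or knockdown 2, and 2 in either fit on FPKM. For the difference between lines, 11 of the 69 were called higher and 1 lower, against 6.94% and 7.61% of all genes tested, with 5 of the 8 stability genes among the higher, LRPPRC first (0.33, SE 0.0726, adjusted p = 0.00233). Of those 8, 0 were called with OE, where their median was 0.06, against 0.24 with the knockdown label. This difference thus takes in the LoVo changes given above. Without LoVo control 1 the 11 became 5, without HCT116 control 1 or OE 2 they became 6, without HCT116 control 2 or knockdown 2 they became 7, and on FPKM 3. The 5 stability genes became 2 without HCT116 control 1, HCT116 control 2, OE 2 or LoVo control 1, 3 without knockdown 2 or knockdown 3, and 1 on FPKM.

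**Figure D5:**
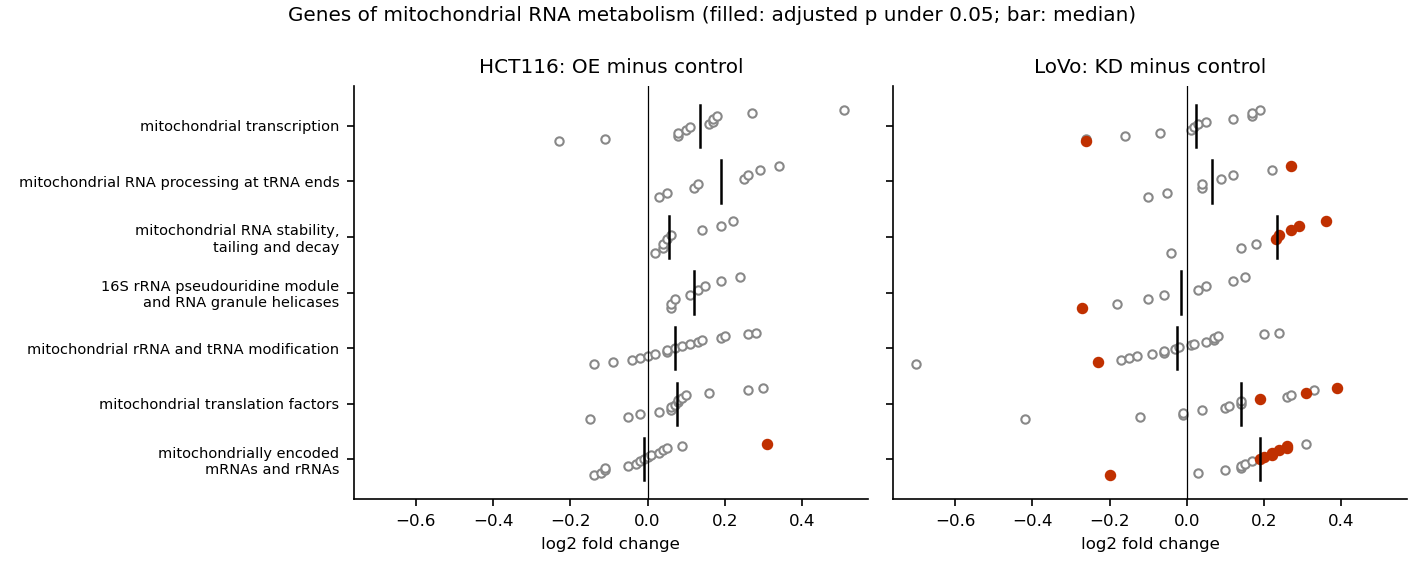
Log2 fold change of each gene of the 6 nuclear lists and of the mitochondrially encoded RNAs, with OE (left) and with the knockdown label (right); filled points have an adjusted p under 0.05 and black bars are medians. With OE the single filled point is MT-RNR1, and on the right 5 of the 8 stability genes are filled.

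Of the mitochondrial RNAs that members are known to act on, none was called with OE, where the log2 fold changes were -0.02 for MT-ND6, 0.04 for MT-RNR2, 0.01 for MT-ND3, -0.12 for MT-CO1 (adjusted p = 0.195) and -0.14 for MT-CYB (adjusted p = 0.159). With the knockdown label MT-ND6, the RNA tied to FASTK and FASTKD2, rose from 303 ± 25.9 to 350 CPM (0.20, SE 0.0688, adjusted p = 0.0313). MT-RNR2, the 16S rRNA that FASTKD2 binds, rose by 0.24 (SE 0.0487, adjusted p = 0.000929) and MT-CO1 by 0.22 (SE 0.0413, adjusted p = 0.000465), while MT-CYB had 0.03 (adjusted p = 0.711). Over the 15 mRNAs and rRNAs, 7 rose and MT-RNR1, the 12S rRNA, fell (-0.20, SE 0.0643), against 12.6% higher and 13.7% lower over all genes. The call of MT-RNR1 was lost without control 1, control 3 or knockdown 3, and in the fits on FPKM 0 of 15 were called, with 3 at an unadjusted p under 0.05. They took 5.33 ± 0.225% of all counts in the LoVo controls and 5.95 ± 0.18% with the knockdown label. MT-RNR1 was the 1 of 15 called with OE (0.31, SE 0.0501, adjusted p = 0.00185), against 0.507% of all genes called higher and 0.407% lower, and this call was lost on FPKM.

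The genes whose levels followed each member most closely were found by Pearson's r of log2 CPM over the 12 libraries, as a description. These points share the gap between the lines and the depth of each library. TBRG4 was followed by EXO1, a DNA exonuclease (r = 0.933), MCM7, a subunit of the replicative helicase (0.914), and CDCA5, which serves sister chromatid cohesion (0.911). FASTK was followed by SECTM1, WNT11 and ZDHHC24 (0.984 to 0.985), FASTKD1 by MSI2, PRELID2 and ARFGEF3 (0.968 to 0.973), FASTKD2 by the splicing factor gene SRSF2 (0.974), EAPP and ME2, and FASTKD3 by BCL2L1 (0.965), NCOA6 and MED12. For FASTKD5 the closest genes, SPRING1, CHMP4B and MATCAP1, reached 0.746 to 0.801.

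Total counts ran from 14.46 to 17.23 M per library, and log2 CPM of libraries of a group correlated at 0.989 to 0.991. All 10 colorectal epithelial markers were above 1 CPM in LoVo and 6 of 10 in HCT116, where CDX1 was at 0 counts. In LoVo their summed level was 7793 to 8314 CPM in the controls and 6791 to 7397 CPM with the knockdown label, without overlap, beside the changes of FASTK and FASTKD1, and its part in them was not tested. The protocol text speaks of retinas, and 9 retinal markers summed to 2.18 to 2.93 CPM in HCT116 and 2.07 to 3.99 CPM in LoVo. NRL alone of these 9 reached 1 CPM, in LoVo. GNAT1, CRX and RCVRN were at 0 counts in both LoVo groups, RLBP1 with the knockdown label, SAG and RCVRN in the OE libraries, and none of the 9 in the HCT116 controls. Leukocyte markers summed to at most 3.77 CPM, fibroblast and endothelial markers to 72.7 to 87.8 CPM in HCT116 and 1.76 to 3.19 CPM in LoVo, and hepatocyte markers to at most 6.95 CPM.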

How the data were processed

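The members and lists were chosen with earlier results of these data known. The aligner was HISAT2 2.1.0 and the build GRCh38, per the submitters' processing notes. The counter, annotation and strand setting are not given in these sources. The authors deposited whole-number read counts and FPKM per gene; each FPKM value equalled count over gene length and total count (largest relative deviation 4.09e-13). Titles name no vector columns, so these were mapped to the HCT116 control group by their heading and carry only a column number. Nothing says that libraries came from separate cultures, so p-values measure only how much these libraries vary, and that spread may be technical.

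Counts were tested with edgeR 4.0.16 in R 4.3.3 (quasi-likelihood F test, TMM factors, filterByExpr, Benjamini-Hochberg) within each line, between the controls, and over all 12 libraries for the difference between lines. CPM used TMM factors over all 12 libraries. Alternatives were DESeq2 1.42.0, RLE and upper quartile factors, no filter, 1 fit of all libraries, limma 3.58.1 on log2(FPKM + 1) and log2(FPKM + 0.1), and leaving out each library. The fits were run on simulated counts with 1 spread for all genes and the same means in all groups, save for the genes made to change. That setting is simpler than these data, and its outcome is not used here. Named genes were the members, SLERT's snoRNAs, up to 3 neighbours within 10 kb, in each list the 3 smallest p per line and up to 5 called genes, mitochondrial RNAs tied to members, and the 3 genes most correlated with each member (mean log2 CPM of at least 1). One of the 10 listed retinal markers is not reported here. Annotation and sequences are from GENCODE v29. In LoVo, same-numbered libraries had deviations correlated at 0.0185 to 0.0617, and differently numbered ones at -0.0536 to 0.00136. The numbers were not taken as pairs in the main fit, and a replicate block was run in LoVo as a further alternative.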

Additional observations from a re-analysis of the deposited data

Results flagged for a closer look

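The change with more SLERT by the labels (OE less control for HCT116, control less knockdown for LoVo) differed between the lines for 2 members, by the edgeR test of the difference itself. For TBRG4 the difference was 0.73 on the log2 scale (adjusted p = 6.9e-07), from 0.66 with OE and a LoVo change that did not pass. These values take all reads counted on TBRG4, and whether reads of the overexpressed RNA are among them was not tested. For FASTKD2 it was 0.32 (adjusted p = 0.0393). Neither line's own change passed (0.15 with OE, adjusted p = 0.296, and 0.18 with the knockdown label, adjusted p = 0.113, where the groups overlapped), and the call of the difference was lost in 10 of 18 alternatives. For SNORA5C the fitted difference was 6.95, given as a description only: SNORA5C is an end of SLERT, so the value reads the overexpression itself. For SNORA5A the fitted difference was 8.32, given as a description: the HCT116 controls had 0 counts, so the value depends on the prior count, and the gene passed the filter on low counts through the OE libraries and was not tested within LoVo.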

How the results depend on the processing

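The call of TBRG4 with OE held in all 13 alternatives (log2 fold change 0.62 to 0.71), as did that for the difference between lines in all 18 (0.66 to 0.79). The count of genes called with OE was 146 and became 276 with DESeq2, 256 without a filter, 7 in both FPKM fits and 37 to 287 with 1 library left out, and upper quartile factors made 41.8% of 141 calls higher in place of 55.5%. In LoVo 4278 became 2845 on log2(FPKM + 1), 34.0% of them higher in place of 47.9%, and 2769 to 4813 with 1 library left out. Members called in LoVo numbered 1 to 3 with 1 library left out. For the difference between lines they numbered 1 in both FPKM fits and with upper quartile factors, and 1 to 3 with 1 library left out.

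Signs turned for small changes that were not called. With OE and 1 library left out, FASTKD1 ran from -0.17 to 0.02 (0.02 without OE 1 or OE 3), FASTK from -0.10 to 0.03 (0.03 without OE 2, 0.02 without control 3), FASTKD3 from -0.01 (without OE 3) to 0.15 and FASTKD5 from -0.02 (without control 2) to 0.07. In LoVo, FASTKD3 ran from -0.16 to 0.12 (without control 1) and SNORA5C from -0.21 to 0.45 (without control 3, and 0.02 without knockdown 1), with 0.04 and 0.02 on log2(FPKM + 0.1) and log2(FPKM + 1). For the difference between lines, FASTKD3 ran from -0.11 to 0.18, and was 0.01, 0.04, 0.08, 0.04, 0.00 and 0.18 without OE 1, OE 2, HCT116 control 1, knockdown 2, knockdown 3 and LoVo control 1, and FASTKD5 ran from -0.14 to 0.01 (without LoVo control 2). The cause was not tested.

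With the replicate block in LoVo, 5588 genes were called, FASTKD2 was called (0.17, adjusted p = 0.0267), and SNORA5C turned to 0.01. Each same-numbered pair correlated best with its own number, a hint from the data and not the design. No replicate block was run for the other comparisons, since the vector columns carry no number tied to the labels. Low counts limit SNORA5A, SNORA5C in LoVo and FASTKD3, and SNORA5B had 0 counts.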
